A study of Mus musculus with 64 samples.

Results

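The enzymes and the transporter that make or use nitric oxide, arginine and itaconate were followed in mouse bone marrow-derived macrophages (BMMs) through 8 genes: Nos2, Slc7a2, Ass1, Gch1, Acod1, Arg1, Arg2 and Odc1. They were chosen by name from the per-gene read counts, as 8 of the 55487 genes listed, and all 8 were among the 14537 genes with enough reads to be tested. In activated macrophages inducible nitric oxide synthase (Nos2) turns arginine into nitric oxide and citrulline, arginase competes for the same arginine and hands ornithine to polyamine synthesis, and aconitate decarboxylase (Acod1) diverts a tricarboxylic acid (TCA) cycle intermediate into itaconate. High Nos2 and Acod1 are known marks of macrophages that have met bacterial products, whereas high Arg1 is best known from alternatively activated mouse macrophages.

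The study asked how the aryl hydrocarbon receptor (AhR), a ligand-activated transcription factor, shapes the response of BMMs to bacteria. RNA was sequenced from 64 libraries in 16 groups of 4. Groups combined genotype, ligand and activation at 3 h or 20 h post administration of hk S.E., which are heat-killed bacteria of the Salmonella serovar Enteritidis and carry ligands for several pattern recognition receptors. Wild-type Ahr+/+ BMMs came from young adult female C57BL/6JRj mice, and Ahr-/- BMMs from mice that were bought as AhR knockouts and backcrossed to that strain in-house.

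All BMMs were grown in medium conditioned by L929 fibroblasts as a source of M-CSF, and were then kept for 6 h with 0.01% DMSO (vehicle control), 1 µM benzo(a)pyrene (BaP), a combustion product and AhR ligand, or 10 µM indole-3-carbinol (I3C), a plant-derived precursor of AhR ligands. Activated cultures received 10000000 hk S.E. per ml. In each genotype and at each time there was 1 unactivated DMSO group and 3 activated groups, with DMSO, BaP or I3C, and no group had a ligand without hk S.E. Bone marrow came from 4 mice of each genotype, the labels do not tie a library to a mouse, and p-values therefore measure the spread between these libraries.

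Libraries held 12152496 to 50644601 read pairs assigned to genes (median 24499165), except that unactivated Ahr+/+ replicate 4 at 20 h held 233047331. All 10 macrophage markers on a check list, such as Adgre1 and Csf1r, were measured, with a summed level of 19540 to 35930 CPM (read counts scaled to a common library size) in the DMSO groups. Reads in Ahr did not separate the genotypes (1.09 to 14.9 CPM in Ahr+/+, 5.11 to 28.1 CPM in Ahr-/-), and a count over the whole gene does not check the knockout. Ahrr, the AhR repressor and a known AhR target, was higher with BaP in activated Ahr+/+ BMMs (log2 fold change 3.36 ± 0.26 (SE) at 3 h and 1.73 ± 0.18 at 20 h), whereas in Ahr-/- BMMs the values were −0.33 ± 0.46 and 0.31 ± 0.23 and no call was made. Activated Ahr-/- libraries at 20 h stood apart as replicates 1 and 2 against 3 and 4 with each ligand: a chi-square of their counts averaged 92.6 to 185 per gene between these pairs and 7.62 to 45.9 within them. With DMSO, activated Ahr-/- libraries at 3 h split likewise (51.4 to 83.5 against 4.49 and 12.4), as did unactivated ones at 20 h (73.1 to 86.2 against 5.36 and 17.2). Unactivated ones at 3 h did not (108.7 between replicates 1 and 2). Fits on 1 pair alone, given below, covered only the activated groups at 20 h. Among markers of other cells, 5 of 8 neutrophil genes were tested. The summed level of all 8 at 3 h went from 36.1 to 67.9 CPM in unactivated to 127.7 to 264.5 CPM in activated Ahr+/+ libraries. In Ahr-/- libraries it went from 21.3 to 23.3 to 108.3 to 112.2 CPM, and its part in the changes below was not tested. Between 0 and 2 of the 8 neutrophil genes were at 0 in a DMSO group. Fibroblast genes (2 of 3 tested) summed to at most 0.674 CPM in Ahr+/+ and to at most 7.82 CPM in Ahr-/- DMSO libraries. Those of T, B, natural killer, mast and dendritic cells summed to at most 6.27 CPM in any group, and the 3 erythroid genes were at 0.

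The 8 genes lie on 7 chromosomes of the GRCm38 assembly. Nos2 lies at chr11:78920787-78960254 (+), the cationic amino acid transporter gene Slc7a2 at chr8:40862396-40922308 (+), the argininosuccinate synthase gene Ass1 at chr2:31470207-31520672 (+) and the GTP cyclohydrolase gene Gch1 at chr14:47153895-47189413 (−). Acod1 lies at chr14:103046977-103056573 (+), Arg1 at chr10:24915221-24927484 (−), Arg2 at chr12:79130777-79156301 (+) and the ornithine decarboxylase gene Odc1 at chr12:17544794-17551505 (+). Odc1 and Arg2 share chromosome 12 with Ahr, at 17.95 Mb and 43.6 Mb from it.

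RefSeq promoter windows (250 bases before to 50 bases after the start, GRCm38.p6) were matched for 4 of the 8 genes, Ass1, Gch1, Acod1 and Odc1, and not for Nos2, Slc7a2, Arg1 and Arg2. They are shown, up to the annotated gene start and 5′ to 3′ on the gene's strand, because the comparisons concern an AhR knockout, AhR ligands and bacterial activation. Capitals mark matches, on either strand, to the core of the AhR response element (AHRE I, GCGTG, printed as CACGC where it lies on the other strand) or to a kappa B pattern (GGGA and CC with any 4 bases between them).
Ass1, chr2:31470020-31470206 (+): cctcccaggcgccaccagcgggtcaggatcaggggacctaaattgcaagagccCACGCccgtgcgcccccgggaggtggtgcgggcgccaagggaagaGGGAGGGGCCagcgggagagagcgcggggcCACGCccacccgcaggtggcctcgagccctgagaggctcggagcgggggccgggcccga
Gch1, chr14:47189414-47189663 (−): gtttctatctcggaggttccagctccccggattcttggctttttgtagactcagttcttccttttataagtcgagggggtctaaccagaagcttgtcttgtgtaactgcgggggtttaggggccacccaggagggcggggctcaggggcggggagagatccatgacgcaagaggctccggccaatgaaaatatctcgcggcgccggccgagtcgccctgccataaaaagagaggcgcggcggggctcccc
Acod1, chr14:103046762-103046976 (+): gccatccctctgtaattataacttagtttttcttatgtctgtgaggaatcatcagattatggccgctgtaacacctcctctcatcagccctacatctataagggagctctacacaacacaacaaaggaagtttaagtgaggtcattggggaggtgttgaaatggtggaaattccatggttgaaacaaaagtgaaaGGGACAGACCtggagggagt
Odc1, chr12:17544623-17544793 (+): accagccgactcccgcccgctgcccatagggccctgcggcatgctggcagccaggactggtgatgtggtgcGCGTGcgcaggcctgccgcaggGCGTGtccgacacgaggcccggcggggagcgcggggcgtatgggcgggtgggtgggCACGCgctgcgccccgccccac

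The Odc1 window held 3 AHRE I matches, the Ass1 window 2 and the Gch1 and Acod1 windows 0, and 32.4% of all 32851 promoter windows of this length held at least 1. A kappa B match was found once in the Ass1 and once in the Acod1 window, against 20.7% of all windows. An interferon-stimulated response element pattern (GAAA and GAAA with any 2 bases between them, 3.44% of windows) and a gamma-activated site pattern (TTCNNNGAA, 8.3%) were in none of the 4, and an E-box (CACGTG, 7.15%), which overlaps no AHRE I match, was in the Ass1 window alone, downstream of the printed stretch. The Odc1 and Ass1 windows were rich in G and C (78.0% and 74.0%), the Gch1 window less so (60.3%) and the Acod1 window least (47.0%). A match to letters is not a bound site.

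Reads of some of the 8 genes can be shared with other loci. Ass1 transcripts matched the pseudogene Gm5424 with 99.5% identity over 1240 bases, and reads assigned to Gm5424 amounted to 20.6 to 34.4% of the Ass1 level across the groups. Odc1 transcripts matched 11 other loci at 95% identity or more, and the 10 on the same strand summed to 3.69 to 7.07% of Odc1. These shares cover only reads that were assigned to a gene. Reads that could not be placed uniquely were left out of the counts, and how many came from Ass1 or Odc1 was not measured. Ass1 and Odc1 levels are therefore uncertain, and the shares do not bound by how much. On the opposite strand Arg2 overlapped Vti1b and Gm48780, Slc7a2 overlapped Gm26584 and Gch1 overlapped Gm49134, and counting used the strand. On the same strand Gch1 overlapped Gm18811 and Odc1 overlapped Gm22748, which the strand does not resolve.

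**Figure D1:**
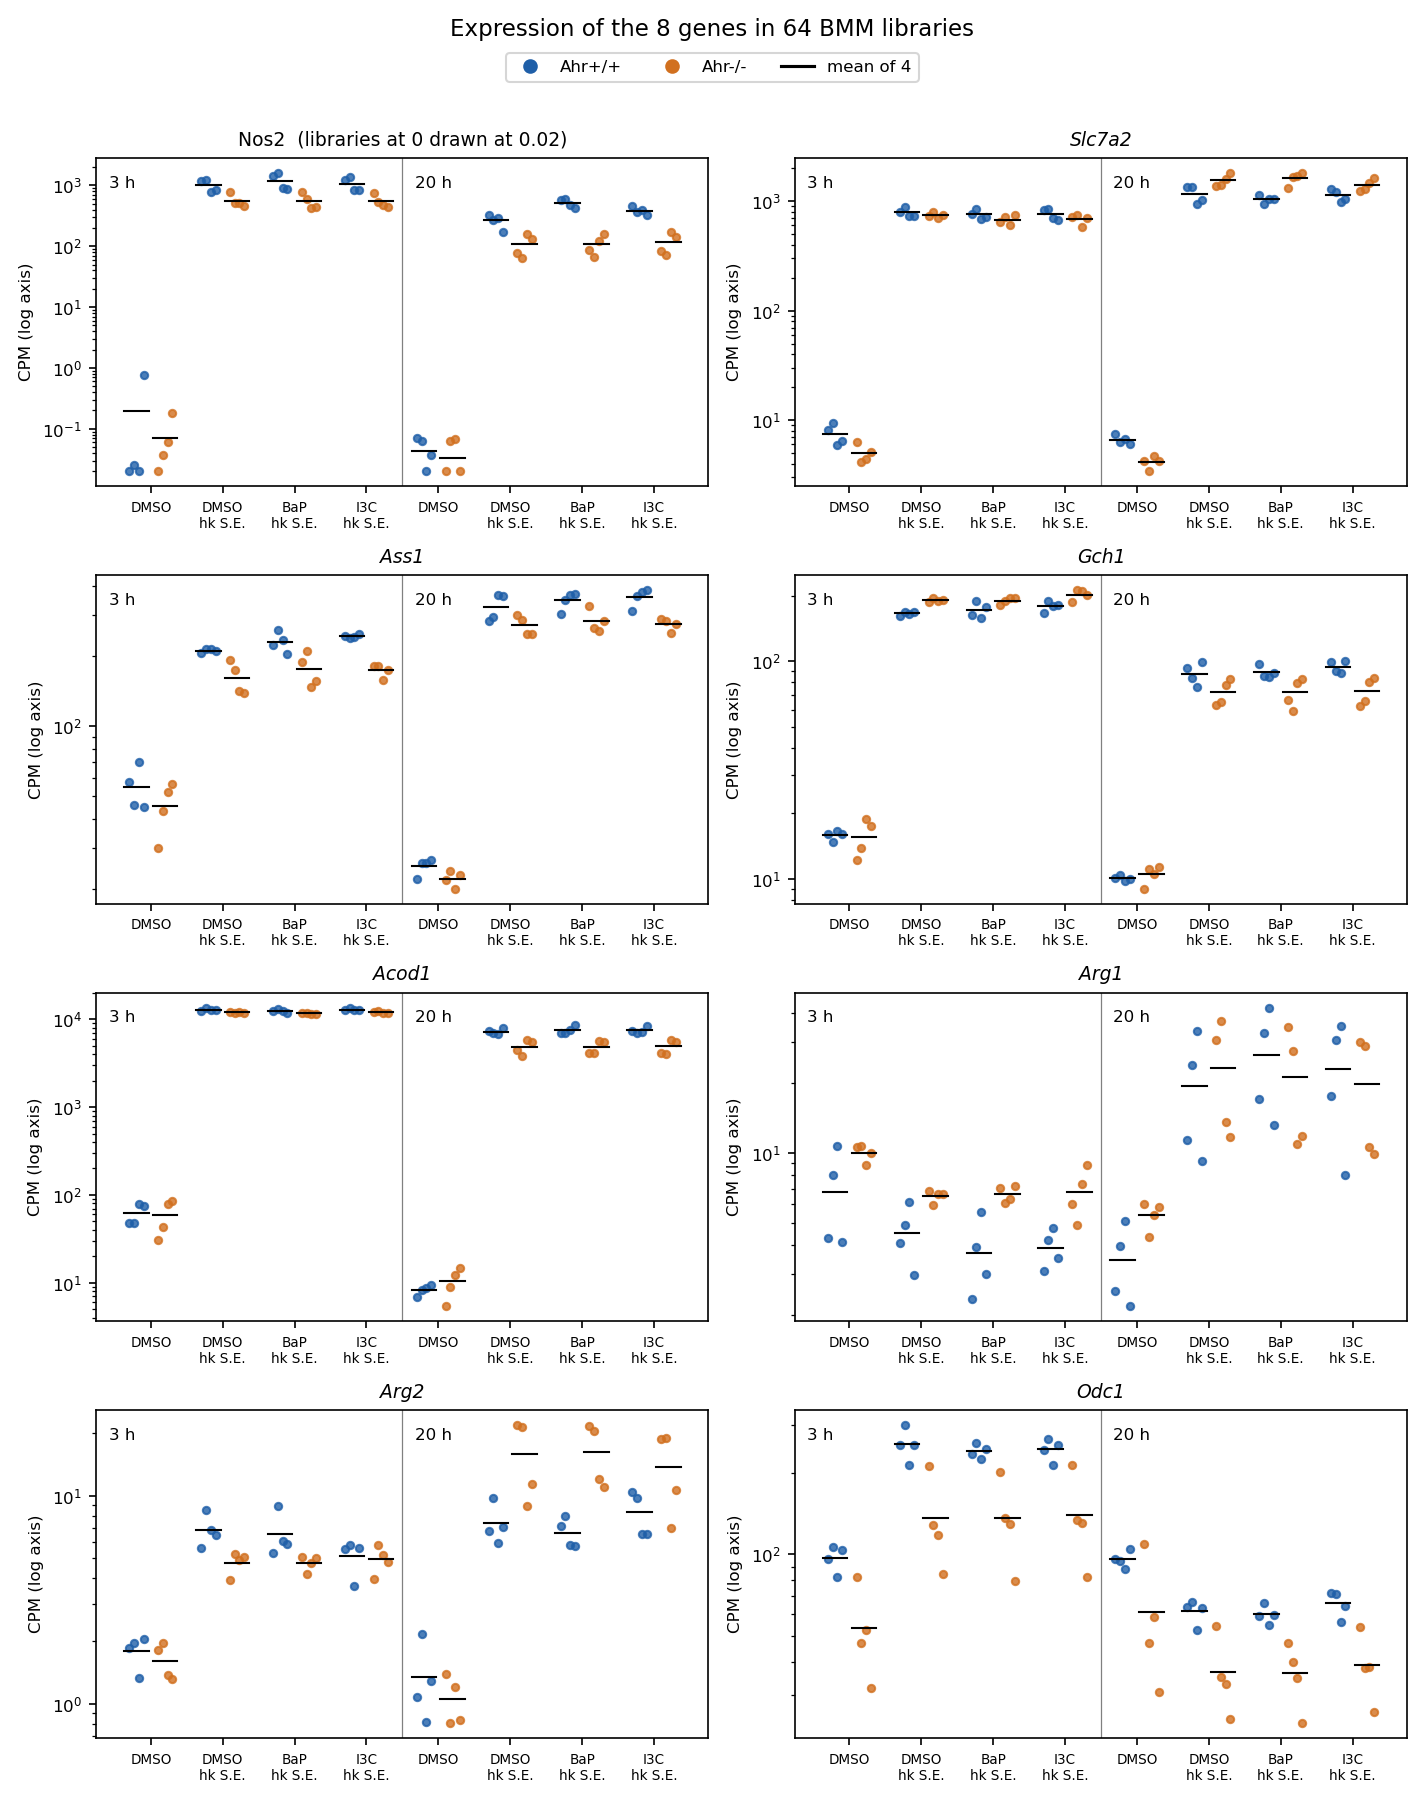
Level of each of the 8 genes (CPM, log axis) in the 64 libraries, by ligand, activation and time, with Ahr+/+ in blue, Ahr-/- in orange and bars for the mean of 4 libraries. Nos2, Slc7a2, Ass1, Gch1, Acod1 and Arg2 separate activated from unactivated libraries at both times. Odc1 does so upwards only at 3 h in Ahr+/+ BMMs, and Arg1 spreads widely among the activated libraries at 20 h.

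Activation with hk S.E. raised the nitric oxide and itaconate genes in both genotypes. With DMSO, 7 of the 8 genes were higher in activated than in unactivated BMMs at 3 h and 7 at 20 h, in Ahr+/+ and in Ahr-/- BMMs alike. The gene left out was Arg1 at 3 h and Odc1 at 20 h. A gene was called at an adjusted p below 0.01 in the quasi-likelihood test of edgeR, adjusted over all tested genes by the Benjamini-Hochberg method, and adjusted p-values below are from that test. By this rule 56.6% of all genes were called in Ahr+/+ BMMs at 3 h, 58.6% at 20 h, 57.3% in Ahr-/- BMMs at 3 h and 54.3% at 20 h. Counting higher genes alone, the shares were 24.2%, 29.9%, 25.5% and 28.3%, and for lower genes 32.3%, 28.7%, 31.8% and 26%. The 8 genes had a median log2 fold change of 2.67, 3.41, 2.73 and 3.75 in these comparisons, against −0.10, 0.00, −0.08 and 0.02 over all genes.

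Nos2, the inducible synthase, was close to the detection limit before activation. Unactivated Ahr+/+ libraries at 3 h held 0, 0.0251, 0 and 0.759 CPM, and the activated ones 1180.1, 1245, 791 and 843 CPM. At 20 h unactivated Ahr+/+ libraries held at most 0.0698 CPM, against 330.1, 267, 295 and 174 CPM in activated ones. In bulk RNA, fewer responding cells and less RNA per cell cannot be told apart. Over the 4 libraries only 17 reads fell in Nos2 in unactivated Ahr+/+ BMMs at 3 h, 16 of them in replicate 4, and 15 at 20 h, and in Ahr-/- BMMs 7 and 4. The ratio of the activated mean to the pooled unactivated level was 6073 at 3 h (95% interval 3793 to 10425, covering counting error only) and 6842 at 20 h (4148 to 12225) in Ahr+/+ BMMs, and 9127 (4429.7 to 22701) and 3906 (1525 to 14335) in Ahr-/- BMMs. Without replicate 4, which was left out after its reads were seen, 1 unactivated read remained at 3 h in Ahr+/+ BMMs and the ratio was 81850 (14690 to 3232900), so the value at 3 h rests on that library. The wide intervals come from the few unactivated reads, and with all libraries they do not separate the genotypes or the times.

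The other genes of the nitric oxide branch rose by smaller factors. Slc7a2, which imports arginine into macrophages, stood at 8.18, 9.36, 5.92 and 6.40 CPM in unactivated Ahr+/+ BMMs at 3 h and at 796, 886, 737 and 736 CPM in activated ones. At 3 h its log2 fold change was 6.71 ± 0.16 (SE, adjusted p = 2.77e-39) in Ahr+/+ and 7.22 ± 0.17 in Ahr-/- BMMs, and by 20 h it was 7.47 ± 0.17 and 8.53 ± 0.17. Gch1, which starts the synthesis of the Nos2 cofactor tetrahydrobiopterin, went from 14.8 to 16.6 CPM up to 161 to 169 CPM in Ahr+/+ BMMs at 3 h, with log2 fold changes of 3.39 ± 0.11 and 3.61 ± 0.11 in Ahr+/+ and Ahr-/- BMMs, and 3.12 ± 0.11 and 2.78 ± 0.11 at 20 h. The activated and unactivated groups did not overlap for either gene, as was true of 62.8% of all genes in Ahr+/+ BMMs at 3 h.

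Ass1, which with argininosuccinate lyase rebuilds arginine from citrulline, was already present before activation, at 57.4, 45.8, 70.3 and 44.8 CPM in Ahr+/+ BMMs at 3 h, and reached 206, 214, 215 and 210.02 CPM with hk S.E. At 3 h the log2 fold change of Ass1 was 1.95 ± 0.13 in Ahr+/+ and 1.84 ± 0.13 in Ahr-/- BMMs, and by 20 h it was 3.70 ± 0.14 and 3.62 ± 0.14. Its near-identical pseudogene Gm5424 gave 1.89 ± 0.21, 1.52 ± 0.21, 3.34 ± 0.22 and 3.09 ± 0.22 in the same order.

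Acod1, the itaconate-forming enzyme, had the highest level per transcript length of the 8 genes in activated BMMs. In Ahr+/+ BMMs at 3 h it went from 47.96, 47.7, 78.4 and 75.3 CPM to 12408, 13425, 12775 and 12719 CPM, and at 20 h from 6.80 to 9.55 CPM to 6704 to 7917 CPM. The log2 fold change was 7.69 ± 0.26 at 3 h and 9.74 ± 0.28 at 20 h in Ahr+/+ BMMs, and 7.65 ± 0.26 and 8.86 ± 0.27 in Ahr-/- BMMs. In activated Ahr+/+ BMMs at 3 h Acod1 had a mean of 4892 reads per kilobase of exon, scaled as CPM are (RPKM), followed by Nos2 with 229.98 RPKM, Ass1 with 87.5, Slc7a2 with 86.4, Odc1 with 75.1, Gch1 with 26.6, Arg2 with 4.81 and Arg1 with 2.03 RPKM. At 20 h the mean levels in the same genotype were 2747 RPKM for Acod1, 135 for Ass1, 128 for Slc7a2, 60.4 for Nos2, 18.1 for Odc1, 14.05 for Gch1, 8.72 for Arg1 and 5.15 RPKM for Arg2.

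The arginases behaved differently from each other. Arg2, the mitochondrial arginase, rose at 3 h from 1.85, 1.96, 1.33 and 2.04 CPM to 5.62, 8.54, 6.85 and 6.47 CPM in Ahr+/+ BMMs, with a log2 fold change of 1.93 ± 0.29 (adjusted p = 6.74e-08) and of 1.56 ± 0.29 in Ahr-/- BMMs. Arg1, the cytosolic arginase, was at 4.29, 8.03, 10.7 and 4.13 CPM without and at 4.08, 4.86, 6.16 and 2.97 CPM with hk S.E. at 3 h, and these ranges overlapped (log2 fold change −0.59 ± 0.45, adjusted p = 0.259). In Ahr-/- BMMs at 3 h Arg1 was at 8.85 to 10.7 CPM without and at 5.95 to 6.85 CPM with hk S.E., groups that did not overlap, as was true of 55.2% of all genes. Its value there was −0.62 ± 0.43 (adjusted p = 0.202), and fitted on these 2 groups alone it was called lower (−0.56, adjusted p = 0.00214). At 20 h Arg1 was at 2.55, 3.96, 5.08 and 2.185 CPM in unactivated and at 11.4, 23.9, 33.3 and 9.18 CPM in activated Ahr+/+ BMMs. Arg1 was thus higher at 20 h in each activated library than in each unactivated one (2.54 ± 0.43, adjusted p = 8.78e-07; 2.08 ± 0.42 in Ahr-/- BMMs), with a coefficient of variation of 58.1% among the activated Ahr+/+ libraries. At 20 h Arg2 gave 2.45 ± 0.28 in Ahr+/+ and 3.89 ± 0.30 in Ahr-/- BMMs.

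Odc1, the rate-limiting enzyme of polyamine synthesis, was raised at 3 h and not at 20 h. Ahr+/+ BMMs held 95.7, 106, 82.3 and 103 CPM without and 254, 301, 215 and 253 CPM with hk S.E. at 3 h (log2 fold change 1.40 ± 0.27, adjusted p = 1.23e-05; 1.35 ± 0.27 in Ahr-/- BMMs). At 20 h the unactivated libraries held 96.1, 94.2, 88.0 and 104 CPM and the activated ones 63.8, 66.4, 52.4 and 63.4 CPM. These Ahr+/+ groups did not overlap, as was true of 65.9% of all genes, but Odc1 did not pass the test at 20 h (−0.64 ± 0.27, adjusted p = 0.0341; −0.74 ± 0.27 in Ahr-/- BMMs, adjusted p = 0.0158). Fitted on the 2 Ahr+/+ groups alone Odc1 was called lower at 20 h (−0.67, adjusted p = 5.87e-06). A replicate block is a term for the replicate number within each genotype. With this block Odc1 was called lower at 20 h in Ahr+/+ (adjusted p = 1.59e-10) and Ahr-/- BMMs (1.05e-10). In Ahr-/- BMMs it was called lower by DESeq2 (−0.78, adjusted p = 0.00787), without activated replicate 1 (−0.99, adjusted p = 0.00293) and without unactivated replicate 4 (−0.96, adjusted p = 0.00209), while without unactivated replicate 1 the value was −0.31. The 2 times differed in their response, with a difference of log2 fold changes of −2.04 ± 0.38 (adjusted p = 9.02e-06) in Ahr+/+ and −2.09 ± 0.39 in Ahr-/- BMMs.

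**Figure D2:**
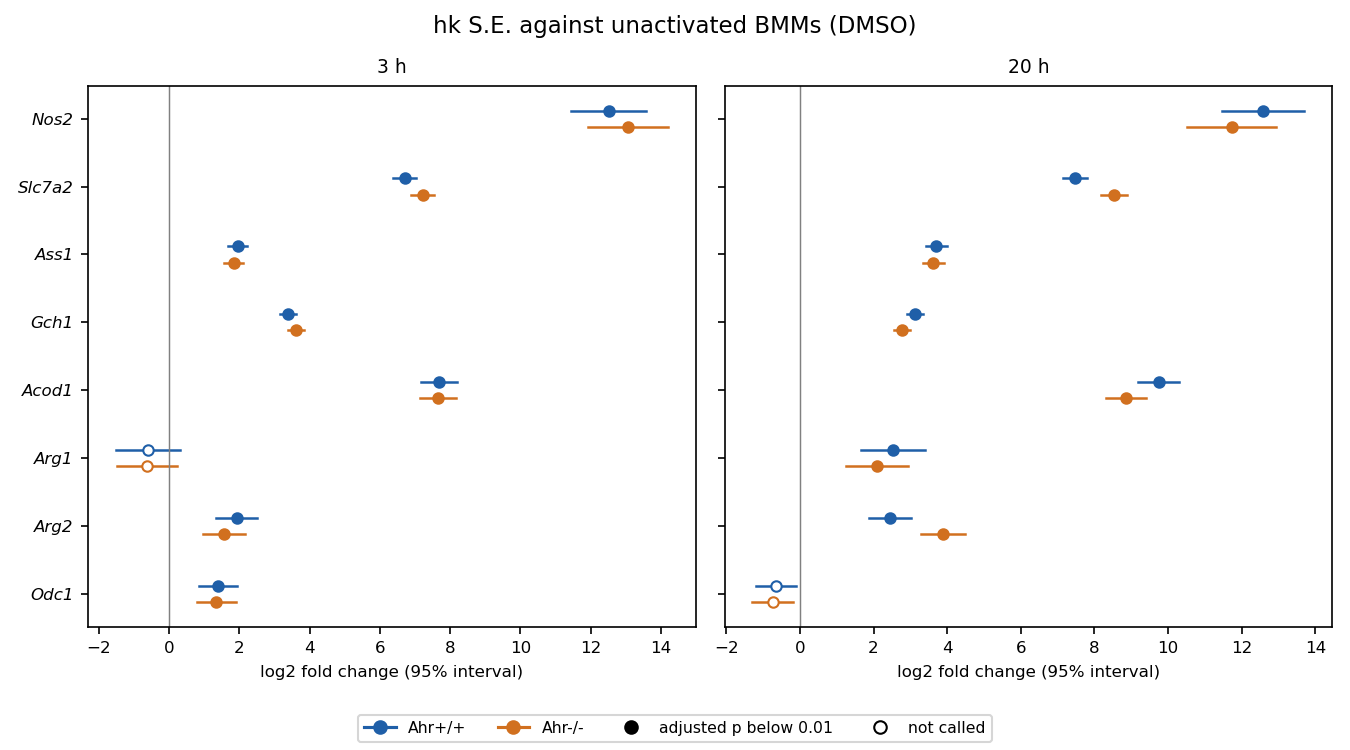
Log2 fold change of hk S.E. against unactivated BMMs with DMSO (95% intervals) at 3 h and 20 h, in Ahr+/+ (blue) and Ahr-/- (orange) BMMs, with filled points for adjusted p below 0.01. Nos2, Slc7a2 and Acod1 lie furthest to the right, and the open points are Arg1 at 3 h and Odc1 at 20 h.

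Other genes of the same pathways were listed together with these 8. Of 7 tested genes for arginine uptake and the citrulline cycle, 3 were higher and 1 lower with hk S.E. at 3 h, and 3 higher and 0 lower at 20 h, in both genotypes. Over all genes 24.2% were higher and 32.3% lower at 3 h in Ahr+/+ BMMs (25.5% and 31.8% in Ahr-/-). At 20 h the shares were 29.9% and 28.7% (28.3% and 26% in Ahr-/-). Slc7a1, a second arginine importer, was higher at 3 h (log2 fold change 0.80 ± 0.13 in Ahr+/+, 1.202 ± 0.13 in Ahr-/- BMMs) and at 20 h (2.87 ± 0.14 and 3.45 ± 0.14). Slc7a7, which exchanges cationic for neutral amino acids, was higher at 3 h (1.13 ± 0.19 and 1.72 ± 0.19), and Slc3a2, the heavy chain shared by several such exchangers, at 20 h (2.13 ± 0.10 and 1.71 ± 0.10). Slc38a9, a lysosomal arginine sensor, was lower at 3 h (−0.94 ± 0.19 and −1.197 ± 0.19). The median of the 7 genes at 3 h and 20 h was −0.05 and 0.43 for Ahr+/+ BMMs, and −0.11 and 0.71 for Ahr-/- BMMs.

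Among 8 tested genes of tetrahydrobiopterin synthesis and nitric oxide synthase regulation, which do not include Gch1, 5 were lower and 0 higher at 3 h in both genotypes, and 6 were lower and 1 higher at 20 h. Of all genes 32.3% were lower at 3 h and 28.7% at 20 h in Ahr+/+ BMMs (31.8% and 26% in Ahr-/-). The median log2 fold change was −0.81 and −1.54 in Ahr+/+ and −0.96 and −1.17 in Ahr-/- BMMs. Sepiapterin reductase (Spr), the last step of cofactor synthesis, was lower at 3 h (−0.88 ± 0.11 in Ahr+/+, −0.95 ± 0.11 in Ahr-/- BMMs). Lower too were Nosip (−1.08 ± 0.10 and −0.96 ± 0.10 at 3 h) and Nostrin (−1.09 ± 0.12 and −1.34 ± 0.12 at 3 h, −2.29 ± 0.13 and −1.70 ± 0.12 at 20 h), which are known as binding partners of the endothelial synthase. Ddah2, of a family linked to the breakdown of methylated arginines that inhibit the synthases, was at −3.00 ± 0.24 and −3.56 ± 0.26 at 20 h, and Nos1ap at −2.48 ± 0.53 and −2.35 ± 0.55. Gch1 therefore moved in the opposite direction to most of the measured genes of its list.

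Of 20 tested genes of polyamine and proline synthesis, 3 were higher and 8 lower at 3 h in Ahr+/+ BMMs (3 and 10 in Ahr-/-), and 5 were higher and 9 lower at 20 h (5 and 10). Of all genes 24.2% were higher and 32.3% lower at 3 h with Ahr+/+, and by 20 h the shares were 29.9% and 28.7%. Pycr1 and Aldh18a1, which make proline from glutamate, were higher at 20 h (2.55 ± 0.34 and 1.71 ± 0.12 in Ahr+/+, 2.44 ± 0.36 and 2.17 ± 0.12 in Ahr-/- BMMs), and Prodh, which degrades proline, was lower (−2.49 ± 0.26 and −2.22 ± 0.25). Paox, a polyamine oxidase, was lower at 3 h (−1.86 ± 0.16 and −1.99 ± 0.16), as were Pycrl (−1.47 ± 0.13 and −1.18 ± 0.13) and Amd2 (−1.82 ± 0.45 and −1.42 ± 0.41).

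The TCA cycle and itaconate list held 25 tested genes. At 3 h 6 were higher and 2 lower in Ahr+/+ BMMs (6 and 4 in Ahr-/-), and at 20 h 3 were higher and 10 lower in Ahr+/+ but 9 higher and 9 lower in Ahr-/- BMMs. The difference between these counts was not tested. The shares over all genes were 24.2% higher and 32.3% lower at 3 h in Ahr+/+ BMMs (25.5% and 31.8% in Ahr-/-). By 20 h these shares were 29.9% and 28.7% (28.3% and 26% in Ahr-/-). Idh1, which oxidises isocitrate in the cytosol, was lower at 3 h (−1.001 ± 0.10 and −1.06 ± 0.10) and at 20 h (−2.49 ± 0.10 and −2.34 ± 0.10). Suclg2 (−1.69 ± 0.12 and −1.18 ± 0.11) and the mitochondrial Idh2 (−1.32 ± 0.14 and −0.79 ± 0.14) were lower at 20 h, and Dld (0.81 ± 0.16 and 0.84 ± 0.16) and Dlst (0.58 ± 0.06 and 0.67 ± 0.06), subunits of the oxoglutarate dehydrogenase complex, were higher at 3 h. The medians of the list were 0.07 and −0.06 in Ahr+/+ and 0.07 and 0.12 in Ahr-/- BMMs.

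Between 3 h and 20 h of activation the genes parted into a falling and a rising set. In activated Ahr+/+ BMMs 7 of the 8 genes differed between the times, where 59.5% of all genes were called, and in Ahr-/- BMMs 8 of 8, where 56% were. Nos2 was lower at 20 h (log2 fold change −1.93 ± 0.30, adjusted p = 9.73e-08, in Ahr+/+, and −2.38 ± 0.30 in Ahr-/- BMMs), and so were Gch1 (−0.92 ± 0.10 and −1.40 ± 0.10), Acod1 (−0.83 ± 0.19 and −1.29 ± 0.19) and Odc1 (−2.06 ± 0.28 and −1.89 ± 0.28). Arg1 was higher at 20 h (2.103 ± 0.44 and 1.83 ± 0.42), as were Ass1 (0.63 ± 0.13 and 0.75 ± 0.13) and Slc7a2 (0.57 ± 0.12 and 1.06 ± 0.12). Without replicates 1 and 2 of the Ahr-/- libraries at 20 h Arg1 gave 0.95 and was not called (adjusted p = 0.0402). Arg2 was called in Ahr-/- BMMs (1.73 ± 0.26, adjusted p = 8.25e-08) and not in Ahr+/+ BMMs (0.09 ± 0.26, adjusted p = 0.769). The library identifiers of the Ahr-/- activated groups differed in series between the times (RIB0015 at 3 h, RIB0020 at 20 h with DMSO), so that series and time cannot be told apart there. With the series as a term over all groups 8 of 8 genes were called, with −3.63 for Nos2 and 1.54 for Arg2. The synthase, its cofactor enzyme and the itaconate enzyme thus stood below their 3 h level at 20 h, while the arginine importer, the arginine-rebuilding enzyme and Arg1 were above it. A check list of alternative activation, without Arg1, held 5 genes, of which 2 were tested. With DMSO and hk S.E. its summed level was 80.6 to 107.9 CPM at 3 h and 7.77 to 8.70 CPM at 20 h in Ahr+/+ BMMs. In Ahr-/- BMMs it was 35.65 to 49.97 CPM at 3 h and 4.65 to 7.05 CPM at 20 h.

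Without hk S.E. 3 of the 8 genes differed between the times. Acod1 fell from 47.7 to 78.4 CPM at 3 h to 6.80 to 9.55 CPM at 20 h in Ahr+/+ BMMs (log2 fold change −2.89 ± 0.21, adjusted p = 6.03e-15) and the value was −2.51 ± 0.21 in Ahr-/- BMMs. Ass1 (−1.12 ± 0.13 and −1.04 ± 0.13) and Gch1 (−0.65 ± 0.10 and −0.57 ± 0.10) were lower as well, although in Ahr-/- BMMs Gch1 was not called with the identifier series as a term (adjusted p = 0.0251), nor were Ass1 and Gch1 when these 2 groups were fitted alone (0.012 and 0.0741). Here 6.07% of all genes were called in Ahr+/+ and 6.98% in Ahr-/- BMMs. In this comparison Acod1 ranked 1 of all genes by p in Ahr+/+ and 2 in Ahr-/- BMMs. The activation fold of Acod1, Ass1 and Gch1 at each time therefore rests on a control level that itself differed between the times.

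The response to hk S.E. differed between 3 h and 20 h for 5 of the 8 genes in Ahr+/+ BMMs, where 47.8% of all genes were called, and for 7 in Ahr-/- BMMs, where 44.7% were. It was larger at 20 h for Arg1 (difference of log2 fold changes 3.13 ± 0.62 in Ahr+/+, 2.70 ± 0.60 in Ahr-/- BMMs), Acod1 (2.06 ± 0.28 and 1.22 ± 0.28), Ass1 (1.75 ± 0.18 and 1.78 ± 0.18) and Slc7a2 (0.76 ± 0.18 and 1.31 ± 0.19), and smaller for Odc1, as given above. Fitted on the 4 Ahr-/- groups alone Acod1 was not called (1.16, adjusted p = 0.0361). In Ahr-/- BMMs it was also larger for Arg2 (2.32 ± 0.41) and smaller for Gch1 (−0.83 ± 0.14). For Nos2 no such difference was called (0.08 ± 0.46 and −1.33 ± 2.12), and its fitted values depend on the few unactivated reads: in limma on the deposited variance-stabilised values they were −1.91 and −2.41 and both were called.

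Ordered by mean level, the activated groups fell by time first, then by genotype, for Nos2, Slc7a2, Ass1, Gch1 and Acod1, with the unactivated groups below them. For Nos2 the 3 Ahr+/+ activated groups at 3 h led (1015 to 1198 CPM), and their lowest library lay above each library of the next group, activated Ahr-/- BMMs with DMSO at 3 h (565 CPM). The Ahr-/- groups at 3 h overlapped with each other and, in order, with the Ahr+/+ groups at 20 h (266 to 519 CPM). The 3 activated Ahr-/- groups at 20 h came next (108 to 117 CPM), clear of the Ahr+/+ group above them, and the unactivated groups last. Of the 15 pairs of neighbours in the order, 3 were free of overlap for Nos2 and for Gch1, 4 for Acod1, 2 for Slc7a2, Ass1 and Odc1, 1 for Arg2 and 0 for Arg1.

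For Acod1 the 6 activated groups at 3 h led, then came the 3 Ahr+/+ groups at 20 h (means of 7205 to 7555 CPM), the 3 Ahr-/- groups at 20 h (4844 to 4896 CPM), the unactivated groups at 3 h and those at 20 h, with no overlap at any of these 4 borders. For Odc1 the 3 activated Ahr+/+ groups at 3 h (241 to 256 CPM) lay clear of the activated Ahr-/- groups at 3 h (136 to 140 CPM), and the lowest means were those of the activated Ahr-/- groups at 20 h (36.3 to 38.9 CPM). Arg1 gave no clear border anywhere in its order, from 26.3 ± 13.5 CPM (SD, n = 4) in activated Ahr+/+ BMMs with BaP at 20 h down to 3.44 ± 1.33 CPM in unactivated Ahr+/+ BMMs at 20 h.

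Ahr-/- BMMs were compared with Ahr+/+ BMMs without an added ligand. The Ahr-/- mice came from a separate line that was backcrossed, so knockout, line and DNA near Ahr cannot be told apart. This includes Odc1 and Arg2, which share its chromosome. Before activation Slc7a2 was the 1 gene of 8 called at each time, against 1.21% of all genes at 3 h and 0.702% at 20 h. Unactivated libraries at 3 h held 8.18, 9.36, 5.92 and 6.40 CPM of Slc7a2 in Ahr+/+ and 6.24, 4.17, 4.41 and 5.11 CPM in Ahr-/- BMMs. At 20 h they held 7.499, 6.25, 6.67 and 6.00 CPM in Ahr+/+ and 4.23, 3.40, 4.70 and 4.22 CPM in Ahr-/- BMMs. The ranges overlapped at 3 h (log2 fold change −0.59 ± 0.14, adjusted p = 0.009) and not at 20 h (−0.65 ± 0.14, adjusted p = 0.00491), where the same was true of 8.28% of all genes. Both calls lay near the threshold. At 3 h the call was lost without Ahr+/+ replicate 1, 2 or 4 (adjusted p = 0.043, 0.134 and 0.0105) or without Ahr-/- replicate 2, 3 or 4 (0.0772, 0.0604 and 0.0208), and at 20 h without Ahr+/+ replicate 1 or 3 (0.0342 and 0.0149) or Ahr-/- replicate 2 or 4 (0.0371 and 0.0233).

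With hk S.E. for 3 h none of the 8 genes was called between the genotypes, where 2.83% of all genes were. In this comparison 4 of them had an unadjusted p below 0.05, as did 19.1% of all genes, and DESeq2 and limma called 0. Nos2 stood at 1180.1, 1245, 791 and 843 CPM in Ahr+/+ and at 768, 524, 514 and 453 CPM in Ahr-/- BMMs, which did not overlap (log2 fold change −0.85 ± 0.29, adjusted p = 0.0684). Here Ahr+/+ replicates 1 and 2 had library identifiers of series RIB0031. Ahr+/+ replicates 3 and 4 and the Ahr-/- libraries had RIB0015. Over the alternative settings the Nos2 value ran from −0.85 to −0.53 and was not called. Odc1 stood at 254, 301, 215 and 253 CPM in Ahr+/+ and at 213, 129, 118 and 84.3 CPM in Ahr-/- BMMs, again without overlap (−0.91 ± 0.27, adjusted p = 0.0311). Ass1 gave −0.38 ± 0.13 (adjusted p = 0.0584) and Gch1 0.20 ± 0.10 (adjusted p = 0.248). In all, the groups did not overlap for 6 of the 8 genes (Nos2, Ass1, Odc1, Arg2, Gch1 and Acod1), against 12.1% of all genes. Odc1 was called when Ahr-/- replicate 1, its highest Ahr-/- library, was left out.

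With hk S.E. for 20 h Nos2 was lower and Arg2 higher in Ahr-/- BMMs, 2 of the 8 genes where 12.5% of all genes were called. Nos2 was at 330.1, 267, 295 and 174 CPM in Ahr+/+ and at 78.7, 63.0, 161 and 130 CPM in Ahr-/- BMMs. The lowest Ahr+/+ library lay just above the highest Ahr-/- library (log2 fold change −1.30 ± 0.29, adjusted p = 7.55e-04). Arg2 was at 6.74, 9.75, 5.91 and 7.03 CPM in Ahr+/+ and at 21.8, 21.4, 8.94 and 11.4 CPM in Ahr-/- BMMs. Replicate 2 of the Ahr+/+ libraries lay above the lowest Ahr-/- library (1.11 ± 0.25, adjusted p = 7.63e-04). Both calls were kept in each of the 8 fits that left out 1 of these libraries, with adjusted p up to 0.00875 for Nos2 and up to 0.0098 for Arg2. They were not kept when, after the split of the Ahr-/- libraries was seen, replicates 3 and 4 alone stood for the activated Ahr-/- groups at 20 h (Nos2 −0.87, adjusted p = 0.0363; Arg2 0.48, adjusted p = 0.136), and replicates 1 and 2 alone gave −1.91 and 1.56. With replicates 1 and 2 alone Gch1 and Acod1 were called as well, and with 3 and 4 alone Slc7a2 was the 1 gene called.

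The other 6 genes did not pass the test at 20 h. Slc7a2 was at 1337, 1361, 944 and 1033 CPM in Ahr+/+ and at 1382, 1396, 1593 and 1813 CPM in Ahr-/- BMMs (log2 fold change 0.40 ± 0.12, adjusted p = 0.0138). Acod1 was at 7259.7, 6939, 6704 and 7917 CPM in Ahr+/+ and at 4479.9, 3768, 5736 and 5517 CPM in Ahr-/- BMMs (−0.56 ± 0.19, adjusted p = 0.0283). Neither of these 2 pairs of groups overlapped, as was true of 20.4% of all genes. Gch1 gave −0.28 ± 0.10 (adjusted p = 0.0325), Odc1 −0.75 ± 0.27 (adjusted p = 0.0445), Ass1 −0.27 ± 0.13 (adjusted p = 0.133) and Arg1 0.25 ± 0.39 (adjusted p = 0.721). Of the pathway lists, the TCA list had 4 of 25 genes higher and 0 lower in Ahr-/- BMMs, the polyamine and proline list 1 higher and 1 lower of 20, the cofactor list 2 higher and 1 lower of 8 and the arginine uptake list 1 higher of 7, where 5.06% of all genes were higher and 7.39% lower.

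The identifiers of the activated Ahr+/+ libraries at 20 h all began with RIB0015 and those of the Ahr-/- libraries at 20 h with RIB0020, so that this series of identifiers and the genotype cannot be told apart in that comparison, for the 8 genes and for the pathway lists. With the identifier series as a term, over all groups, the values were −2.54 (adjusted p = 0.188) for Nos2 and 0.92 (adjusted p = 0.12) for Arg2, and neither was called. Fitted on the 2 groups alone, Nos2 and Arg2 had adjusted p of 0.0216 and 0.0298.

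The response to hk S.E. itself differed between the genotypes at 20 h for Slc7a2, 1 of the 8 genes, where 4.41% of all genes were called. Its activation was larger in Ahr-/- BMMs by 1.05 ± 0.19 on the log2 scale (adjusted p = 9.39e-05), which combines the lower unactivated and the higher activated values listed above. Arg2 (1.43 ± 0.40, adjusted p = 0.0138) and Acod1 (−0.88 ± 0.28, adjusted p = 0.0342) missed the threshold. With the replicate block Arg2 and Acod1 were called (adjusted p = 0.00128 and 0.00589), as were 10.4% of all genes. DESeq2 called Arg2 too (1.40, adjusted p = 0.00655), as did edgeR in 4 of 16 fits that left out 1 library: without Ahr+/+ activated replicate 2, Ahr+/+ unactivated replicate 3, or Ahr-/- activated replicate 3 or 4. With replicates 1 and 2 alone in the activated Ahr-/- groups Arg2 (1.87), Acod1 (−1.13) and Gch1 (−0.52) were called beside Slc7a2, and with 3 and 4 alone Slc7a2 was called (1.19). At 3 h 0 of 8 genes were called, where 0.0138% of all genes were, and 1 had an unadjusted p below 0.05, as did 5.96% of all genes (Slc7a2, 0.50 ± 0.19, adjusted p = 0.564), and DESeq2 and limma called 0.

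**Figure D3:**
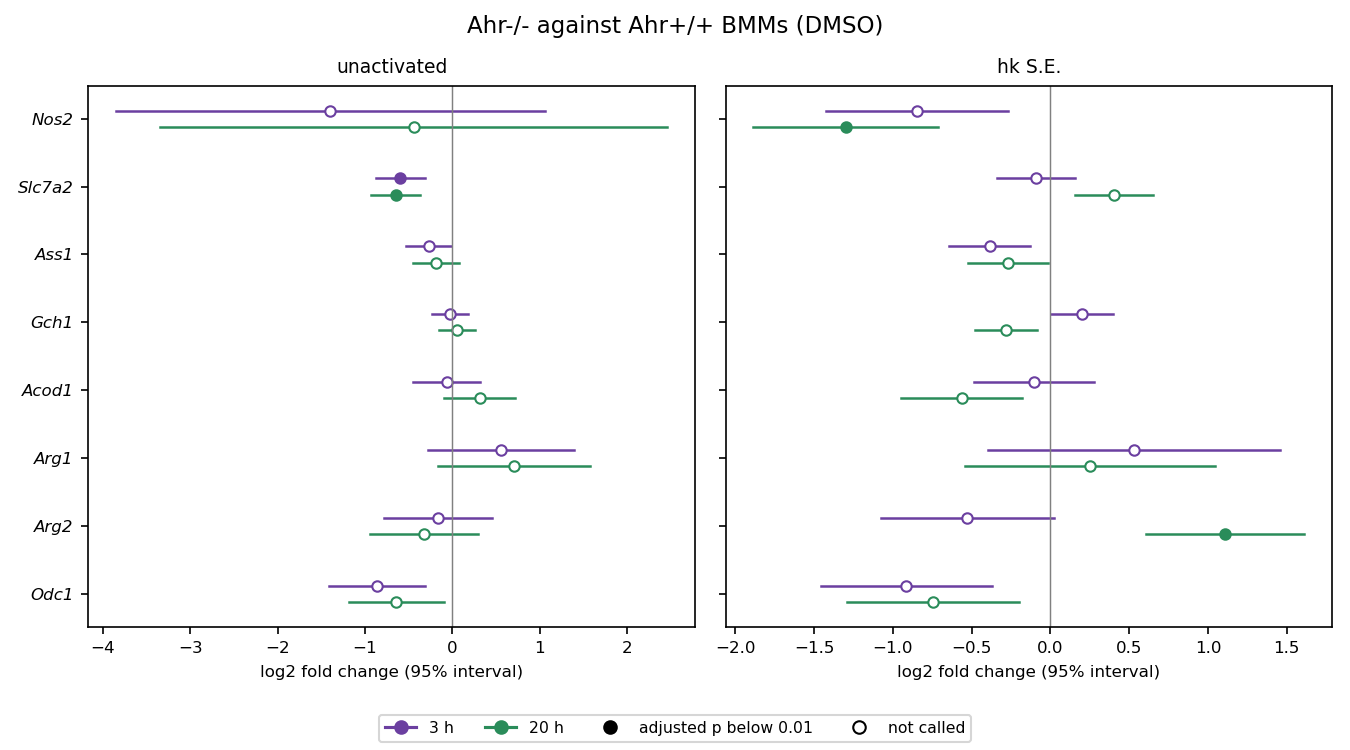
Log2 fold change of Ahr-/- against Ahr+/+ BMMs with DMSO (95% intervals), unactivated and with hk S.E., at 3 h (purple) and 20 h (green), with filled points for adjusted p below 0.01. The filled points are Slc7a2 before activation and Nos2 and Arg2 after 20 h of hk S.E.

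Within a genotype, libraries with the same replicate number often held the same rank. Odc1 was highest in replicate 1 and lowest in replicate 4 in 8 of 8 Ahr-/- groups, for example 213 against 84.3 CPM with hk S.E. at 3 h and 54.3 against 24.5 CPM at 20 h. In Ahr+/+ BMMs Odc1 was lowest in replicate 3 in 8 of 8 groups. Arg1 was highest in replicate 3 in 8 of 8 Ahr+/+ groups, followed by replicate 2.

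Activated Ahr-/- libraries at 20 h fell into the same pairs for 6 of the 8 genes in 3 of 3 groups, as they did for 44.3% of all genes, so the split was not particular to these genes. Replicates 1 and 2 held the highest Arg1 and Arg2 levels in 3 of 3 groups, with DMSO 30.7 and 36.8 CPM of Arg1 against 13.6 and 11.6 CPM in replicates 3 and 4. Replicates 3 and 4 held the highest Nos2, Slc7a2, Gch1 and Acod1 levels in 3 of 3 groups, with DMSO 161 and 130 CPM of Nos2 against 78.7 and 63.0 CPM. The numbers come from the labels, which do not say what they share.

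**Figure D4:**
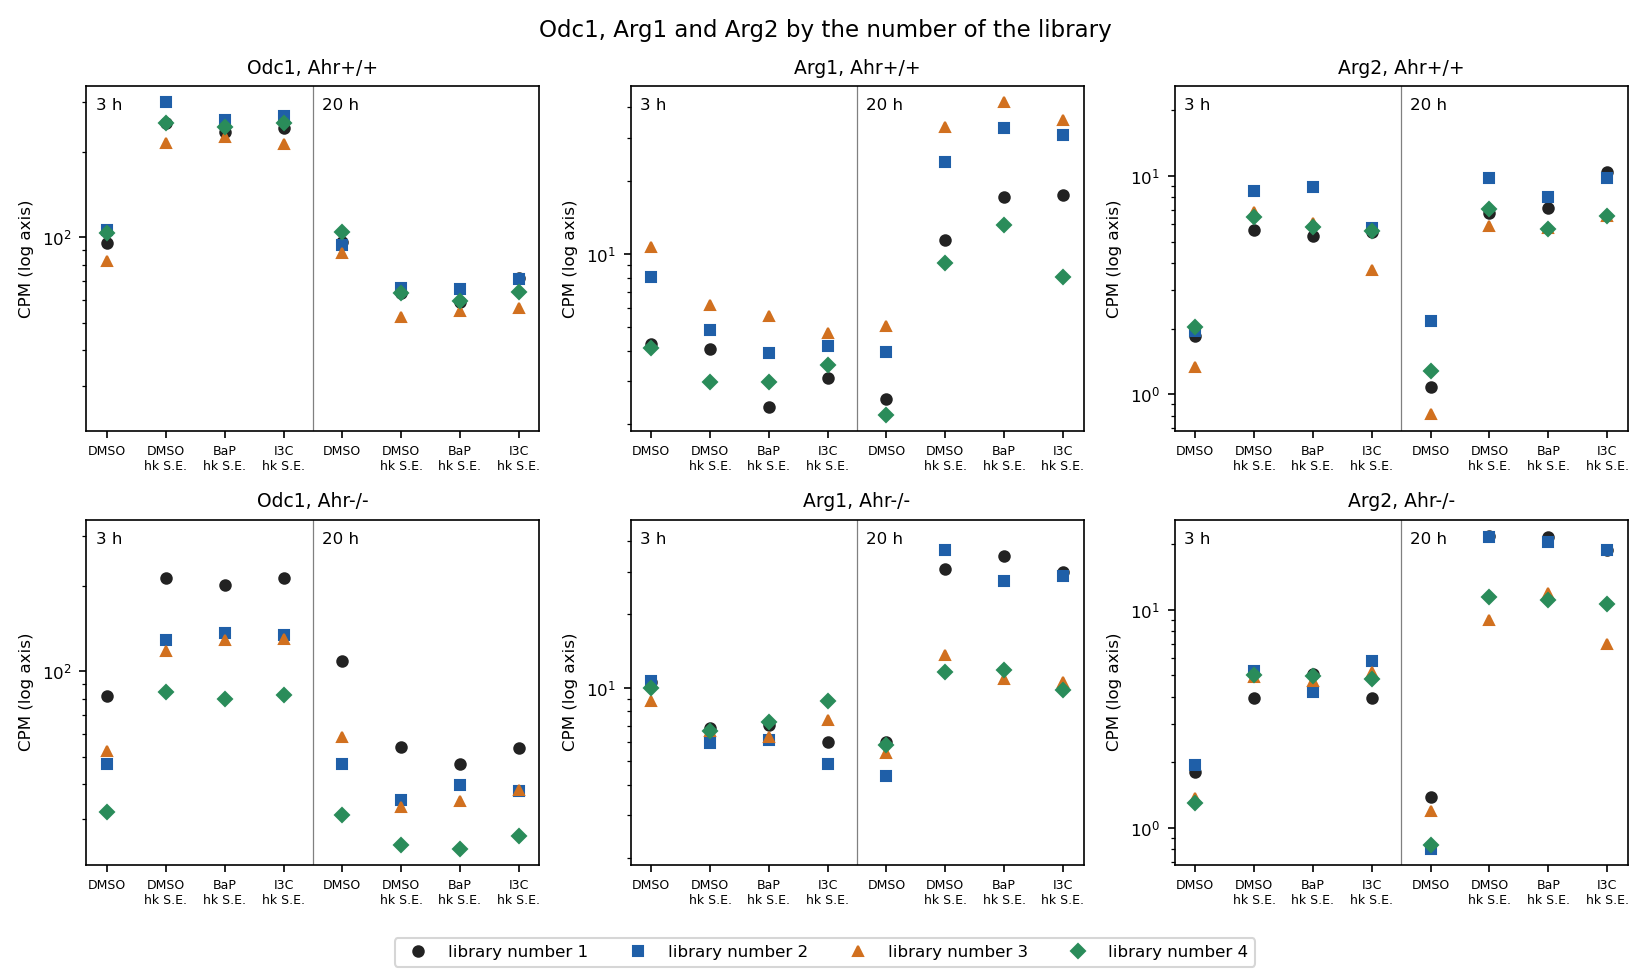
Levels of Odc1, Arg1 and Arg2 (CPM, log axis) by replicate number, shown as symbols, in each group of Ahr+/+ (upper) and Ahr-/- (lower) BMMs. Replicate 1 tops and replicate 4 closes each Ahr-/- group for Odc1, and replicates 1 and 2 stand above 3 and 4 for Arg1 and Arg2 in activated Ahr-/- BMMs at 20 h.

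The AhR ligands were compared with DMSO in activated BMMs at matched times. In 8 comparisons (BaP or I3C, 2 times, 2 genotypes) 0 of the 8 genes passed edgeR's test, and 1 value, Nos2 with BaP in Ahr+/+ BMMs at 20 h, had an unadjusted p below 0.05, as did 10.4% of all genes there. DESeq2 and limma called 0 as well. With the replicate block edgeR called 1 of these values, Nos2 with BaP in Ahr+/+ BMMs at 20 h (adjusted p = 0.00754). That block raised the share of all genes called at 20 h in wild-type BMMs to 1.86% (BaP) and 1.01% (I3C). Using DESeq2 and the same threshold, the paper lists more AhR-dependent genes for each ligand and time than were called here. Its lists hold genes called in either genotype but not in both, and exclude genes called without ligand. They are therefore not counted as the calls here are. As the block shows, how few genes respond to the ligands depends on the fit. Without the block few genes were called in all. With BaP it was 0.0482% at 3 h and 0.234% at 20 h in Ahr+/+ and 0.0275% and 0.0138% in Ahr-/- BMMs, and with I3C it was 0.131% and 0.509%, and 0.0206% and 0.206%.

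Nos2 in activated Ahr+/+ BMMs at 20 h was at 330.1, 267, 295 and 174 CPM with DMSO and at 575, 602, 475 and 423 CPM with BaP. The 2 groups did not overlap, as was true of 9.05% of all genes, and the log2 fold change was 0.96 ± 0.29 (95% interval 0.38 to 1.54, adjusted p = 0.11). With I3C the libraries held 459, 366, 388 and 327 CPM, of which the lowest lay just under the highest DMSO library (0.53, interval −0.05 to 1.11, adjusted p = 1). At 3 h the values were 0.24 (−0.34 to 0.82) with BaP and 0.07 (−0.50 to 0.65) with I3C. In Ahr-/- BMMs at 20 h Nos2 was at 78.7, 63.0, 161 and 130 CPM with DMSO and at 85.2, 67.7, 124 and 158 CPM with BaP (0.01, interval −0.57 to 0.59). The difference between the genotypes in the response to BaP at 20 h was 0.95 (0.14 to 1.77, adjusted p = 0.924).

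For the other genes the ligands made little measured difference. Over the 8 comparisons the log2 fold changes ran from −0.04 to 0.07 for Acod1, from −0.01 to 0.11 for Gch1, from 0.02 to 0.21 for Ass1, from −0.16 to 0.07 for Slc7a2, from −0.08 to 0.10 for Odc1, from −0.41 to 0.18 for Arg2 and from −0.28 to 0.44 for Arg1. Their 95% intervals together reached from −0.20 to 0.30 for Gch1, the tightest, and from −1.28 to 1.23 for Arg1, the widest, so for Arg1 the intervals leave room for larger changes than for the other genes. Ass1 with I3C in Ahr+/+ BMMs at 3 h (245, 239, 242 and 250.2 CPM) did not overlap with DMSO (206, 214, 215 and 210.02 CPM), as was true of 6.14% of all genes, with a log2 fold change of 0.21 ± 0.13 and an adjusted p of 1.

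In the test of the ligand response between genotypes 0 of the 8 genes were called, where 0.0138% (BaP, 3 h) and 0% (the other 3 comparisons) of all genes were, and Nos2 with BaP at 20 h was the 1 value with an unadjusted p below 0.05, as were 4.67% of all genes. DESeq2 and limma called 0 in these and in the next comparisons. BaP and I3C, a polycyclic hydrocarbon and an indole, were given at different concentrations (1 µM and 10 µM), so their readouts are given side by side. Between them 0 of the 8 genes were called in Ahr+/+ BMMs at 3 h (0.11% of all genes) and at 20 h (0.282%), none had an unadjusted p below 0.05, and the log2 differences ran from −0.33 to 0.43, with intervals from −1.07 to 1.01.

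**Figure D5:**
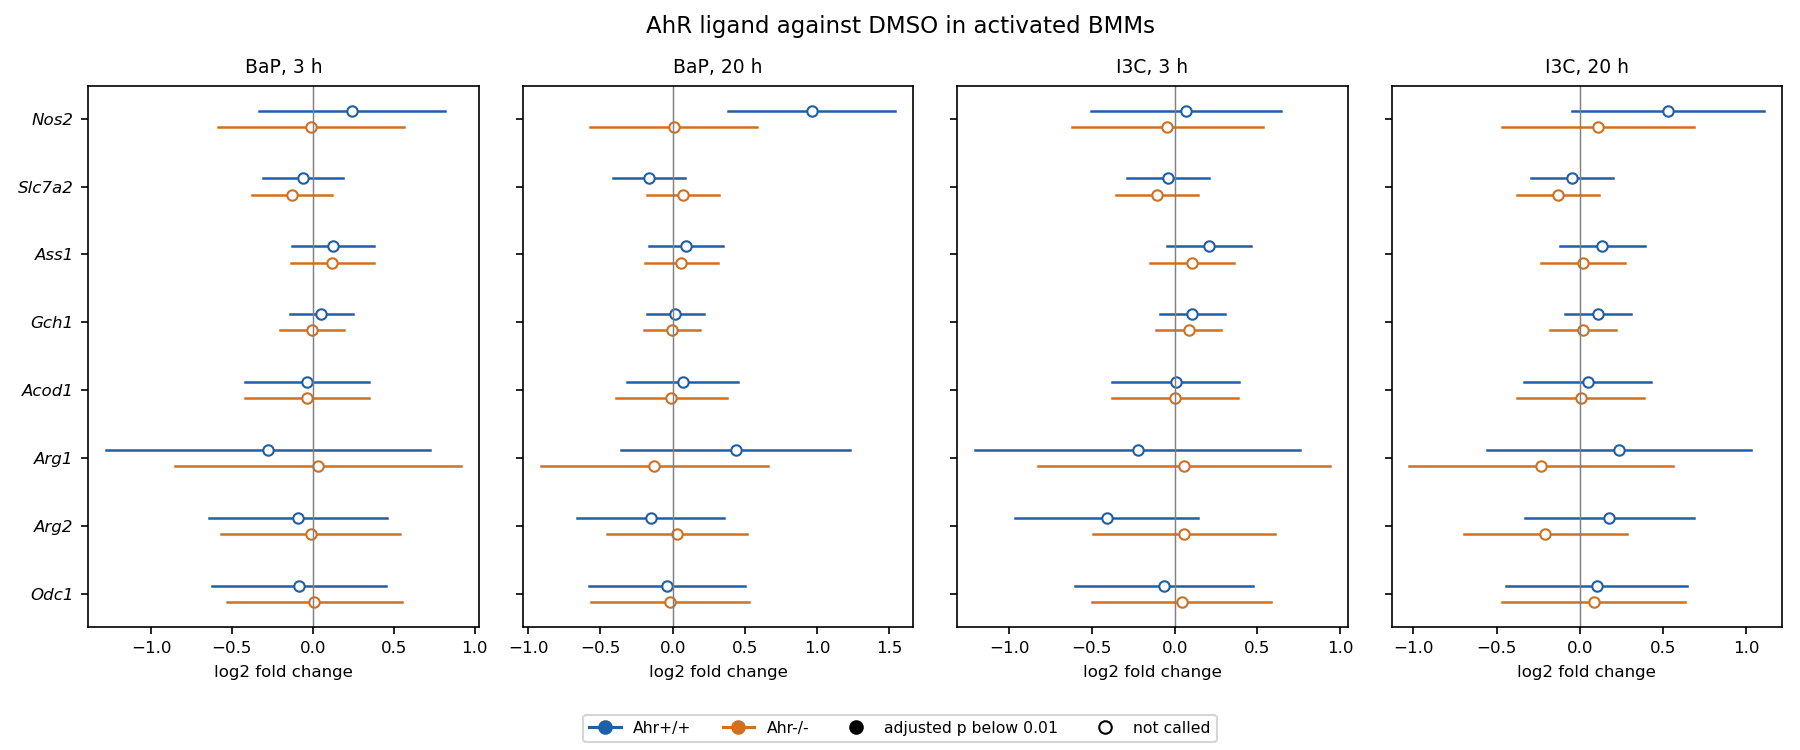
Log2 fold change of BaP or I3C against DMSO in activated BMMs (95% intervals) at 3 h and 20 h, in Ahr+/+ (blue) and Ahr-/- (orange) BMMs. No point is filled (adjusted p below 0.01), and Nos2 with BaP at 20 h in Ahr+/+ BMMs, at 0.96, is furthest from 0.

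Across the 16 groups the mean log2 CPM of Nos2 rose and fell with that of Acod1 (r = 0.98), Gch1 (0.97), Slc7a2 (0.95) and Ass1 (0.91), less with Arg2 (0.79) and little with Odc1 (0.35) and Arg1 (0.20). These are descriptions over 16 group means that share activation and time. Among all other tested genes the closest to Nos2 were Gbp2, an interferon-induced guanylate-binding protein, Slc11a2, a metal ion transporter, and Ccrl2, a chemokine receptor-like gene (r = 1.00 each after rounding). The closest to Acod1 were Met, Isg15 and Dhx58, to Gch1 Ino80, Usp18 and Rtp4, and to Slc7a2 U90926, Denr and Gm5345 (r of 0.99 or more). Ass1 was most like its pseudogene Gm5424, then Lrrc8d and Wars, Arg2 like Wfdc17, Uxt and Adora2b, and Arg1 like Tent4b, Zbtb18 and Trib3. Odc1 was most like its own copy Gm9115 and then Mmp10 and Rps6ka2 (r of 0.97 to 0.98).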

How the data were processed

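Libraries were made with a stranded mRNA kit (TruSeq) and sequenced as read pairs. Per the methods and the labels, the authors used bcl2fastq 2.19.0.316, aligned reads to mm10 with HISAT2 2.1.0 and counted them per gene by strand with HTSeq 0.9.1, and the deposited count files hold these raw counts. Entries naming no gene took 19.2 to 25.1% of the counts and were left out. The authors also deposited a log2-scale table of variance-stabilised values for all libraries, used in 1 alternative.

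Here counts were analysed with edgeR 4.0.16 (R 4.3.3, limma 3.58.1). Genes kept by filterByExpr with a minimum count of 10 were scaled by TMM, and 16 group means were fitted over all 64 libraries (48 residual degrees of freedom). Quasi-likelihood tests gave 30 comparisons, each adjusted by Benjamini-Hochberg over 14537 genes and called at 0.01. CPM use the same scaling, RPKM divide by exon length, and errors of log2 fold changes are SE. Fits were checked on simulated data. The simulated libraries were drawn independently, with 1 dispersion for all genes. They held no deviations shared by replicate number, so the check does not cover these. The 8 genes and the pathway and marker lists were chosen with earlier results of these data known. Genes outside the 8 were named by rule: the 3 largest changes called in both genotypes per pathway list and time, and the 3 highest correlations. Alternatives were DESeq2 1.42.0, median-of-ratios scaling, no filter, the compared groups alone, a replicate block, limma on the deposited log2-scale values, the identifier series, and leaving out each library in turn, with the pairs of activated Ahr-/- libraries at 20 h added after seeing the data. Within a group no library pair was a duplicate (chi-square per gene of at least 4.49), and pairs from different groups were not compared. Gene positions and exon lengths were taken from a GENCODE annotation of GRCm38 one release earlier than the one the authors counted on.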

Additional observations from a re-analysis of the deposited data

Results flagged for a closer look

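Of 128 groups of 4 libraries, 3 held a library far from the others by Dixon's test, where chance gives about 1 group in 20. Nos2 was at 0.759 CPM in unactivated Ahr+/+ replicate 4 at 3 h and at no more than 0.0251 CPM in the other 3. Acod1 was at 13538.8 CPM in replicate 2 of activated Ahr+/+ BMMs with I3C at 3 h, against 12619.6 to 12762.4 CPM in the others. Arg2 was at 3.69 CPM in replicate 3 of the same group, against 5.52 to 5.79 CPM.

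The tested difference in response to hk S.E. between 20 h and 3 h was called in Ahr+/+ BMMs for Arg1 (3.13 on the log2 scale), Ass1 (1.75), Slc7a2 (0.76), Acod1 (2.06) and Odc1 (−2.04). In Ahr-/- BMMs it was called for Arg1 (2.70), Arg2 (2.32), Ass1 (1.78), Slc7a2 (1.31), Gch1 (−0.83), Acod1 (1.22) and Odc1 (−2.09). Whether these differences differed between the genotypes was not tested. The difference in response between Ahr-/- and Ahr+/+ BMMs at 20 h was called for Slc7a2 (1.05).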

How the results depend on the processing

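Over the 8 genes and 30 comparisons, 1940 values were recomputed under settings other than leaving out a library: 20 lost a call, 20 gained one in the same direction, and no called value changed sign. Of the values not called, 74 changed sign, and 4 of these either became called or lay more than 1 SE from 0 both ways. Leaving out 1 library at a time gave 2432 values, of which 10 lost and 10 gained a call and 223 that were not called changed sign. The Slc7a2 call before activation at 3 h (1 gene) became 0 genes with median-of-ratios scaling, no filter, the identifier series as a term, RIB0015 libraries alone, limma on the deposited values, or the compared groups alone, and ranged from 0 to 1 without single libraries. The one at 20 h became 0 with no filter, limma or the compared groups alone, with a range of 0 to 1. Activated genotypes at 3 h gave 0 to 1 genes without single libraries, and those at 20 h 0 rather than 2 with the identifier series as a term or the compared groups alone. The difference in activation between genotypes at 20 h gave 2 genes with DESeq2 and 1 to 2 without single libraries. Replicates 1 and 2 alone in activated Ahr-/- groups at 20 h, an alternative chosen after seeing the data, gave 4 genes for either of these comparisons at 20 h, and replicates 3 and 4 alone gave 1. The 4 sign changes set apart above were Nos2 in the difference of activation between times in Ahr+/+ BMMs with limma (−1.91, called), Nos2 between unactivated genotypes at 3 h in RIB0015 libraries alone (4.41 ± 3.30, both groups near 0 reads), and Ass1 between genotypes at 20 h with the identifier series as a term (0.17 unactivated, 0.24 activated), which were not called. The cause was not tested.

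Replicate numbers recur across groups but no source ties a number to a mouse. Deviations from the group means of same-numbered libraries correlated above 0.1 in 32 of 48 Ahr+/+ pairs (−0.09 to 0.32) and 45 of 48 Ahr-/- pairs (−0.25 to 0.65). Pairing was not assumed in the main fit. Among the 4 libraries of the other group, a library correlated best with its own number in 44 and 37 of 48, where random matching gives 1 in 4. Same-numbered libraries thus often shared deviations, which the main fit leaves in its spread. With a replicate block, Nos2 was called with BaP in Ahr+/+ BMMs at 20 h (1 gene; 0.97 ± 0.23, adjusted p = 0.00754, 1.86% of all genes called), and 3 genes differed in activation between the genotypes at 20 h (Slc7a2, Arg2 at 1.32 and Acod1 at −0.86). Odc1 was then lower with hk S.E. at 20 h in Ahr+/+ (−0.64 ± 0.08) and Ahr-/- BMMs (−0.67 ± 0.08). No number spans both genotypes, so genotype comparisons have no value under the block.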
